A study of Homo sapiens with 6 samples.

Results

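The proteasome genes of the human pancreatic cancer cell line AsPC-1 were examined by RNA sequencing with and without forced expression of MMP28, a secreted matrix metalloproteinase. The set took every protein-coding gene of the count table whose symbol starts with PSMA, PSMB, PSMC, PSMD, PSME, PSMF or PSMG, which gave 49 of 58735 genes. The control cells (Vector, n = 3) carried an empty lentivirus and were labelled wild type. The OE-MMP28 cells (n = 3) carried a lentivirus with the MMP28 coding sequence. By the study's methods, stably infected cells were selected with puromycin, and the MMP28 vector carried GFP and a puromycin marker. Whether the lines were cloned, and which markers the empty virus carried, is not stated. Nothing in the labels says whether the libraries of a group came from separate infections, so p-values measure only the spread between these libraries.

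The proteasome is the barrel-shaped protease that degrades ubiquitin-tagged proteins. Its core stacks rings of alpha subunits (PSMA genes) around rings of beta subunits (PSMB genes), of which PSMB5, PSMB6 and PSMB7 carry the cutting sites. A regulatory cap of ATPases (PSMC genes), which unfold the substrate and thread it into the core, and non-ATPases (PSMD genes), which bind and remove ubiquitin, sits on the ends of the core. Under interferon, cells replace the cutting subunits with PSMB9, PSMB8 and PSMB10 to form the immunoproteasome and make the activator PSME1-PSME2, and the peptides released feed display on class I molecules.

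Most proteasome genes lay higher in OE-MMP28 cells, by modest amounts. Of the 47 genes with enough counts to test, 18 rose and 1 fell (edgeR quasi-likelihood test, Benjamini-Hochberg adjusted p under 0.05), and 28 did not pass. Among all 15319 genes tested, 11.7% passed as higher and 11.6% as lower. The fold changes of 42 of the 47 were positive, their median log2 fold change was 0.36 against 0.014 for all genes, and single genes ranged from -0.60 for PSMA2 to 1.02 for PSMC1. The libraries of the groups did not overlap for 21 members with OE-MMP28 above and 1 below, where 19.5% and 18.6% of all genes separated in those directions. Proteasome genes are well expressed, and among the 5975 genes with a mean of at least 500 counts, 15.3% rose and 11% fell. At that level, 17 of 40 members rose and 0 fell. That limit was chosen after the values were seen.

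The rise was spread unevenly over the particle. By role, 5 of 6 ATPases, 4 of 5 immunoproteasome genes, 4 of 7 constitutive beta subunits and 3 of 7 alpha subunits rose, while 1 of 11 non-ATPases and 1 of 7 assembly factors did. Differences between these groups of genes were not tested, and role was not separated from position. Chromosome 14, where 50.1% of other genes rose, holds PSMA3, PSMB5, PSMC1, PSMC6, PSME1 and PSME2, which rose. It holds no non-ATPase or assembly factor. With the median log2 fold change of other genes within 5 Mb as an offset, PSMB1, PSMB3, PSMB6, PSMB8, PSMB9, PSMC3 and PSMC5 rose. The SE of a member's log2 fold change was 0.14 to 0.25, so a member that did not pass is not shown to be unchanged. In these bulk libraries a change in the share of cells and a change of RNA per cell cannot be told apart.

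**Figure D1:**
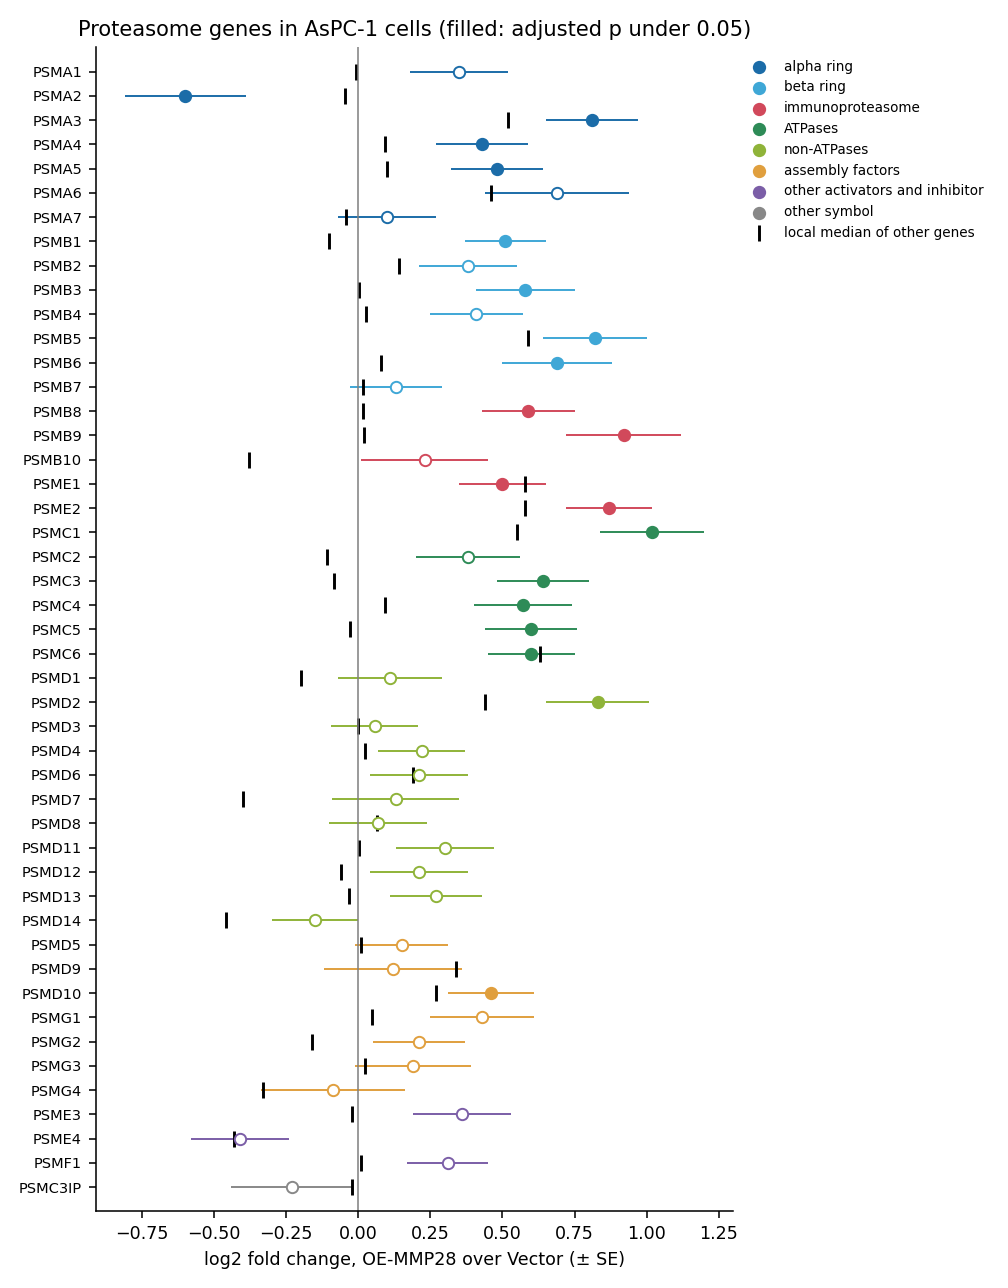
Log2 fold change of OE-MMP28 over Vector (x axis, bars are SE) for the 47 proteasome genes tested (y axis), with colour for the role and filled points for an adjusted p under 0.05. Black ticks mark the median log2 fold change of other genes within 5 Mb. The ATPases and immunoproteasome genes lie mostly at or right of 0.50, and the non-ATPases, PSMD2 apart, lie left of it.

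The count depended on single libraries. It was 10 without Vector replicate 3, without OE-MMP28 replicate 2 or without OE-MMP28 replicate 3, where 7.23%, 6.27% and 8.78% of all genes rose. It was 12 without Vector replicate 2 and 24 without Vector replicate 1, where 9.53% and 12.2% of all genes rose. With limma on log2(FPKM + 1) or log2(FPKM + 0.1) it was 13, where 6.63% and 6.57% of all genes rose, and PSMA4, PSMA5, PSMB3, PSMB6 and PSMC4 were lost in both. The Vector libraries differed among themselves in these genes. Vector replicate 1 was the highest Vector library for 33 of the 47 members and Vector replicate 2 the lowest for 35, where 36.5% and 39.3% of all genes had these libraries in those places. Relative to the mean of the Vector libraries, the median log2 CPM (counts scaled to the library total) of the members was 0.24, -0.23 and -0.0097 in the Vector libraries and 0.42, 0.33 and 0.40 in the OE-MMP28 libraries, in the order of their replicate numbers as throughout. All 3 OE-MMP28 medians were above the highest Vector median. The median of all genes was between -0.011 and 0.033 in every library, but the scaling itself sets it near 0. The median SD of a member between libraries was 0.267 in the Vector group and 0.164 in the OE-MMP28 group on the log2 scale, against 0.211 and 0.218 for all genes tested. At a mean of at least 500 counts, 40 members had 0.268 in Vector and 0.16 in OE-MMP28. All 5975 genes at that level had 0.158 and 0.177.

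**Figure D2:**
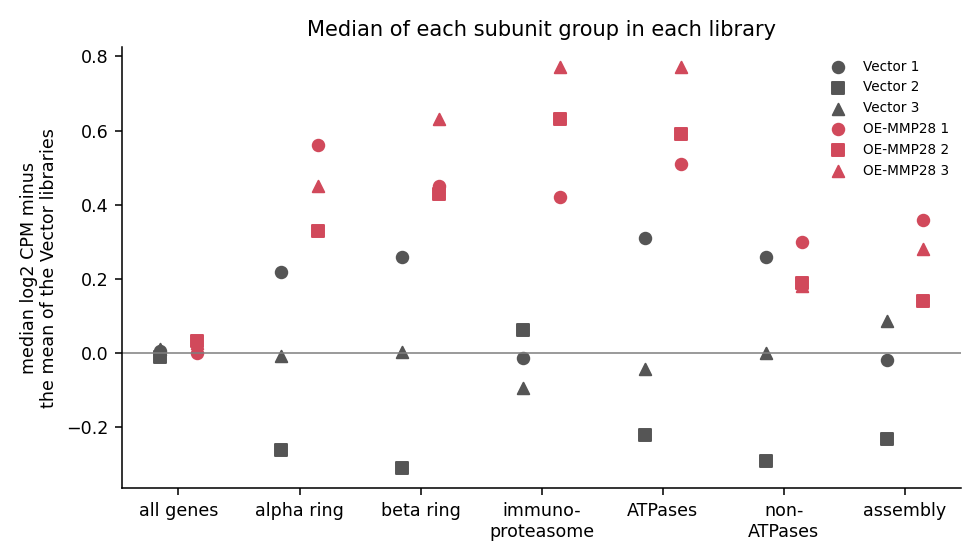
Median log2 CPM of each group of genes minus the mean of the Vector libraries (y axis), for each of the 6 libraries (grey Vector, red OE-MMP28, with a symbol for each replicate). The immunoproteasome medians of the Vector libraries lie between -0.095 and 0.062, and the other proteasome groups spread the Vector libraries further. Medians of all genes sit near 0, where the scaling sets them.

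Total counts ranged from 13633249 to 16691458 per library. The members together took 0.449%, 0.342% and 0.370% of the Vector counts and 0.481%, 0.496% and 0.512% of the OE-MMP28 counts. Mitochondrial genes took between 11.9% and 14.8% of the Vector counts and between 8.8% and 11.9% of the OE-MMP28 counts. With these genes left out before scaling, 17 members rose and 1 fell, where 10.5% of all genes rose and 12.5% fell. FPKM, as deposited, are fragments scaled to gene length and to a library size that differed from the total count. MMP28 itself (chromosome 17) had 5.17, 9.11 and 8.43 FPKM in the Vector libraries and 13.1, 13.9 and 15.1 FPKM in the OE-MMP28 libraries. Its log2 fold change was 0.90 (SE 0.19, edgeR adjusted p = 0.00226). All 8 ductal epithelial markers were detected in every library, with a summed level of 3020 to 4040 FPKM in Vector and 3910 to 4590 FPKM in OE-MMP28. Of 6 immune markers, the leukocyte gene PTPRC had at most 1 count and the T cell gene CD3E had 0 in every library, while LYZ gave most of the summed 106 to 186 FPKM. The lists of 4 fibroblast, 3 endothelial and 3 acinar markers each summed to at most 0.293 FPKM in any library. Single markers moved with the groups: MUC1, KRT19 and the endothelial PECAM1 rose by 2.16, 0.71 and 2.79 on the log2 scale (edgeR adjusted p of 3.6e-08, 0.00175 and 0.00361), the last from 0 to 4 counts to 13 to 30 counts, and CDH1, CEACAM6 and LYZ had log2 fold changes of -0.59, -0.73 and -0.45 (edgeR adjusted p of 0.0113, 0.00221 and 0.0376). Their part in the members' rise was not tested.

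The alpha ring forms the outer gate of the core. PSMA3 (chromosome 14, 58244831 to 58272012) had 30.2, 24.1 and 32.6 FPKM in Vector and 58.3, 43.5 and 49.6 FPKM in OE-MMP28, so each OE-MMP28 library lay above each Vector library. Its log2 fold change was 0.81 (SE 0.16, edgeR adjusted p = 0.00117). PSMA5 rose from 16.1 ± 2.88 to 22.2 ± 0.210 FPKM (SD, n = 3 each), a log2 fold change of 0.48 (SE 0.16, edgeR adjusted p = 0.0316). PSMA4 rose by 0.43 on the log2 scale (SE 0.16, edgeR adjusted p = 0.0487) and lost the call in 14 of 21 alternative fits, the most of any member called. Leaving out any library but Vector replicate 1 ended both calls, with edgeR adjusted p of up to 0.151 for PSMA5 and 0.192 for PSMA4, each without Vector replicate 2, and so did the local-median offset. PSMA1 and PSMA7, the latter the most abundant core subunit at 154 FPKM in Vector, had log2 fold changes of 0.35 (edgeR adjusted p = 0.137) and 0.10 (edgeR adjusted p = 0.708).

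PSMA2 was the member that fell. Its values were 2.02, 2.18 and 1.86 FPKM in Vector and 1.39, 1.16 and 1.40 FPKM in OE-MMP28, with no overlap, and its log2 fold change was -0.60 (SE 0.21, edgeR adjusted p = 0.0377). The call was lost in 9 of 21 alternatives, among them every fit without 1 library except the fit without OE-MMP28 replicate 1, with an edgeR adjusted p of up to 0.165 without OE-MMP28 replicate 2. PSMA2 and PSMA6 stood far below the rest of the core, with Vector means of 2.02 and 0.816 FPKM, while the 11 constitutive core genes whose exons overlap no other gene ranged from 15.9 to 154 FPKM. Of the exon length of PSMA2, 34.6% is shared with other annotated genes, and of PSMA6, 14.1%. PSMA1 shares more than PSMA6, at 24.7%, yet had at least 10.2 FPKM in every Vector library. Whether reads in shared exons were left uncounted was not tested, so the levels and fold changes of PSMA1, PSMA2 and PSMA6 are uncertain. PSMA6 separated the groups, at 1.14, 0.614 and 0.699 FPKM against 1.21, 1.5 and 1.22 FPKM, with a log2 fold change of 0.69 (SE 0.25) and an edgeR adjusted p of 0.0504.

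Among the constitutive beta subunits, the cutting subunits PSMB5 and PSMB6 rose and PSMB7 did not pass. PSMB5, the chymotrypsin-like site and the main target of proteasome inhibitor drugs, had 49.7, 30.7 and 36.4 FPKM in Vector and 57.9, 72.8 and 74.1 FPKM in OE-MMP28, a log2 fold change of 0.82 (SE 0.18, edgeR adjusted p = 0.00231). PSMB6, the caspase-like site, had 55.6, 29.8 and 40.9 FPKM against 56.2, 72.5 and 73.5 FPKM, a log2 fold change of 0.69 (SE 0.19, edgeR adjusted p = 0.0131). For PSMB6 the lowest OE-MMP28 library was barely above the highest Vector library, and the call was lost without Vector replicate 2 and without OE-MMP28 replicate 2 or 3 (edgeR adjusted p of 0.0510, 0.0746 and 0.0638). PSMB7, the trypsin-like site, had 83.3, 106 and 73.1 FPKM against 92.0, 92.0 and 100 FPKM, and these groups overlapped (log2 fold change 0.13, SE 0.16, edgeR adjusted p = 0.592). Of the subunits without a cutting site, PSMB1 rose from 51.0 ± 3.23 to 72.1 ± 5.20 FPKM (SD, n = 3 each; log2 fold change 0.51, edgeR adjusted p = 0.0137) and PSMB3 from 56.4 ± 12.4 to 83.5 ± 10.4 FPKM (log2 fold change 0.58, edgeR adjusted p = 0.0196). PSMB1 lost its call in 1 alternative, without Vector replicate 3 (edgeR adjusted p = 0.0799), and PSMB3 without Vector replicate 2 and without OE-MMP28 replicate 2 or 3 (edgeR adjusted p of 0.0913, 0.0614 and 0.0946). PSMB2 and PSMB4 had log2 fold changes of 0.38 and 0.41 with edgeR adjusted p of 0.121 and 0.0660.

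Of the immunoproteasome genes, 4 of 5 rose and PSMB10 did not pass. PSMB9 (chromosome 6, 32844136 to 32859585) had 5.88, 3.66 and 4.11 FPKM in Vector and 6.98, 9.61 and 8.96 FPKM in OE-MMP28, a log2 fold change of 0.92 (SE 0.20, edgeR adjusted p = 0.00277). This call was kept in all 21 alternatives. PSMB8, its neighbour on chromosome 6 (32840717 to 32844703), had 12.5, 12.5 and 11 FPKM against 15.3, 18.3 and 20.1 FPKM, a log2 fold change of 0.59 (SE 0.16, edgeR adjusted p = 0.0124). Its call was lost without Vector replicate 3 and without OE-MMP28 replicate 2 or 3 (edgeR adjusted p of 0.0781, 0.0720 and 0.0578). PSMB10 (chromosome 16) had 4.77, 5.87 and 4.76 FPKM against 4.50, 5.96 and 7.44 FPKM, and its groups overlapped (log2 fold change 0.23, SE 0.22, edgeR adjusted p = 0.478). Other genes within 5 Mb of PSMB10 had a median of -0.38. With the local-median offset PSMB10 was at 0.62 (edgeR adjusted p = 0.0631), PSMB8 at 0.57 (edgeR adjusted p = 0.0209) and PSMB9 at 0.90 (edgeR adjusted p = 0.00477). An overlapping gene on the same strand, AC040162.1, covers 34.8% of the exon length of PSMB10, and 20.6% of that of PSMB8 is shared with the antisense gene PSMB8-AS1, whose own log2 fold change was -0.42 (edgeR adjusted p = 0.461).

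The activator pair lies on chromosome 14, where PSME1 (24136158 to 24138967) and PSME2 (24143362 to 24147570) are neighbours. PSME2 had 21.8, 23.2 and 20.8 FPKM in Vector and 36.3, 38.1 and 44.8 FPKM in OE-MMP28, with a gap between the groups well beyond their spread (log2 fold change 0.87, SE 0.15, edgeR adjusted p = 0.000351). PSME1, the most abundant of the 5 genes, had 60.5, 62.9 and 59.4 FPKM against 82.5, 76.5 and 96.5 FPKM, a log2 fold change of 0.50 (SE 0.15, edgeR adjusted p = 0.0191). The PSME1 call was lost without Vector replicate 3 and without OE-MMP28 replicate 3 (edgeR adjusted p of 0.0935 and 0.0788). The medians of these 5 genes relative to the Vector mean were -0.012, 0.062 and -0.095 in the Vector libraries and 0.42, 0.63 and 0.77 in the OE-MMP28 libraries. PSMB9 nonetheless had Vector replicate 1 highest and Vector replicate 2 lowest, as most other members had.

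**Figure D3:**
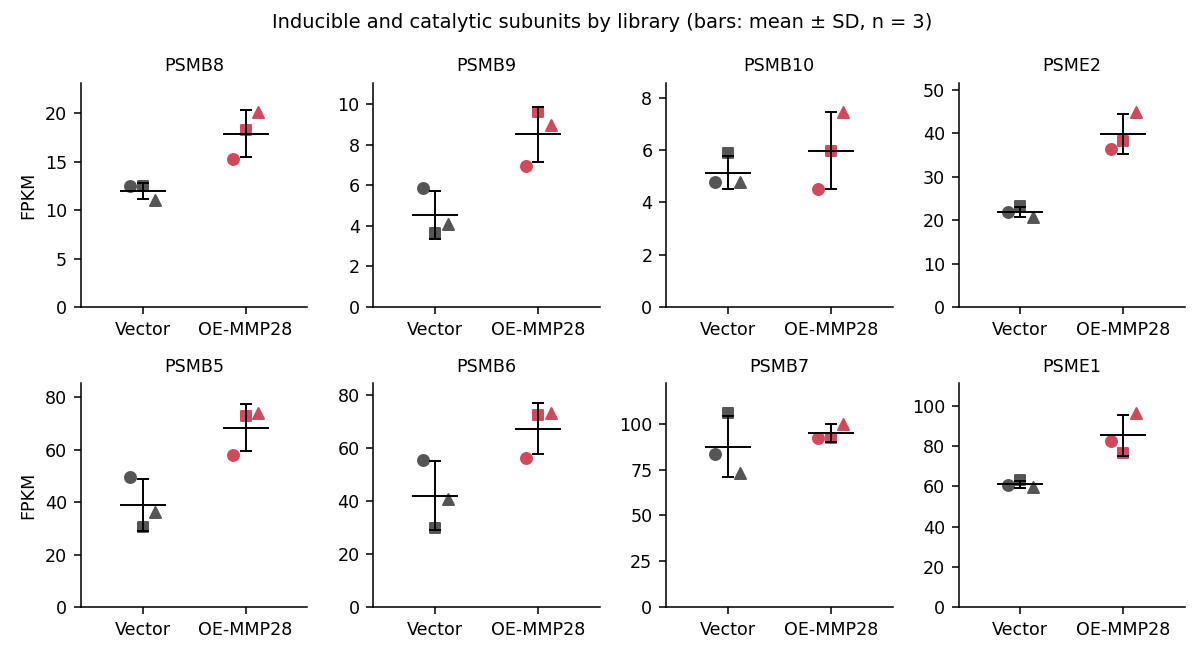
FPKM (y axis, from 0) in each library for the immunoproteasome genes PSMB8, PSMB9, PSMB10, PSME1 and PSME2 and the constitutive cutting subunits PSMB5, PSMB6 and PSMB7, with a symbol for each replicate and bars for the mean ± SD (n = 3). The groups separate for PSMB5, PSMB6, PSMB8, PSMB9, PSME1 and PSME2 and overlap for PSMB7 and PSMB10.

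Whether the inducible cutting subunits gained on those they replace was examined by the ratio of their FPKM values in each library. The ratio of PSMB8 to PSMB5 was 0.251, 0.407 and 0.303 in Vector and 0.264, 0.252 and 0.271 in OE-MMP28, and the mean log2 ratio differed by -0.26 (two-sided exact permutation test, p = 0.4). PSMB9 to PSMB6 was 0.106, 0.123 and 0.101 against 0.124, 0.133 and 0.122, a difference of 0.21 (exact p = 0.2). PSMB10 to PSMB7 was 0.0572, 0.0555 and 0.0651 against 0.0490, 0.0648 and 0.0741, a difference of 0.062 (exact p = 0.9). Single libraries moved these values, since PSMB10 to PSMB7 was 0.23 without OE-MMP28 replicate 1 and -0.070 without OE-MMP28 replicate 3, and PSMB8 to PSMB5 was -0.073 without Vector replicate 2 and -0.42 without Vector replicate 1. For each pair the groups overlapped, and the adjusted p over the 3 pairs was 0.6, 0.6 and 0.9 by the exact test. The smallest p that 3 against 3 libraries can give is 0.1, so this test could not pass 0.05 and does not show the ratios to be equal. In every library the constitutive subunit was the more abundant of each pair.

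The promoters of the immunoproteasome genes are shown because factors of the interferon response are known to act through sites near these starts. Each window runs from 250 bases before to 50 bases after the RefSeq start (GRCh38.p14) and reads 5′ to 3′ along the gene. PSMB8 has a second window (chr6:32844630-32844929), not printed, which holds neither motif. Capitals mark the interferon response motif, spelled GAAA, any 2 bases and GAAA, and the antioxidant response element core TGACNNNGC, the site read by NFE2L1 and its relatives, on either strand.
PSMB8 (chr6:32843998-32844297, minus strand): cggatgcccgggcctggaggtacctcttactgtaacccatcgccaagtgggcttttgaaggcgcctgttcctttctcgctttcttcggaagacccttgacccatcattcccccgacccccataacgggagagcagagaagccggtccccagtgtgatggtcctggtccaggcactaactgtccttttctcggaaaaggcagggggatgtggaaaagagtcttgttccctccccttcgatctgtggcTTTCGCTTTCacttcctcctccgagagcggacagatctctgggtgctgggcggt
PSMB9 (chr6:32853942-32854241, plus strand): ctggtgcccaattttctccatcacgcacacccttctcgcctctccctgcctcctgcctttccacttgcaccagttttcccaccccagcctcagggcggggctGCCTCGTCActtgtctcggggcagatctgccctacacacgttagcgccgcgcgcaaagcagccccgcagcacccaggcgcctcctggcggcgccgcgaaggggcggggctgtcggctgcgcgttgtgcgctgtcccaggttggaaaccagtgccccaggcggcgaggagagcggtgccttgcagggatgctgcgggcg
PSMB10 (chr16:67936801-67937100, minus strand): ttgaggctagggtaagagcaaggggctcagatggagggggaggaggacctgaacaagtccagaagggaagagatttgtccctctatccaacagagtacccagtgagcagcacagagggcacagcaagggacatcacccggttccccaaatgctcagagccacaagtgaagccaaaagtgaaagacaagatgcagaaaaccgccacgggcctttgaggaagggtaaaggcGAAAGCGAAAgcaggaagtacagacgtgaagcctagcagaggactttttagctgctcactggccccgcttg
PSME1 (chr14:24135944-24136243, plus strand): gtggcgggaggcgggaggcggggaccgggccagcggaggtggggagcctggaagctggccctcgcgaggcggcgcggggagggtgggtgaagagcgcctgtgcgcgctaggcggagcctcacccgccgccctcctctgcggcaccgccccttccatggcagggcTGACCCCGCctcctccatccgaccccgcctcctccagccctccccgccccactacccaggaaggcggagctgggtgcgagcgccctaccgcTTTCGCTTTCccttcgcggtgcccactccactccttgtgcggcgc
PSME2 (chr14:24146561-24146860, minus strand): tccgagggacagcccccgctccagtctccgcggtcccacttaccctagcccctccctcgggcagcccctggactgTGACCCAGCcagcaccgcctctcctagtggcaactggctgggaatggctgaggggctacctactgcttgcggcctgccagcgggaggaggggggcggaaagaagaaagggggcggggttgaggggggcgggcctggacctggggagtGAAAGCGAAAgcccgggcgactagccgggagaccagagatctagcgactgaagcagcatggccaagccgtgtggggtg

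The interferon motif was found for 4 of the 5 genes and not in the window of PSMB9. That window covers only part of the bases between the starts of PSMB9 and its neighbour TAP1, and the rest was not searched. PSMB9 had a log2 fold change of 0.92 (SE 0.20), close to the 0.87 (SE 0.15) of PSME2, which holds the motif. PSMB10 holds it and did not pass the test, but was at 0.62 with the local-median offset (edgeR adjusted p = 0.0631). Whether the motif had a part in these changes was not tested. Among the 38 other members with a window, 3 held the motif, as did 4.38% of the 27305 genes with a window. The antioxidant response element core was found for PSMB9, PSME1 and PSME2 and for 12 of the 38 other members, or 31.6%, against 16.1% of all genes. Among those 38, it was held by 4 of 12 that rose and by 8 of the 26 others. These others include PSMA2, which fell, and PSMA8 and PSMB11, which were not tested. The motifs were matched by their letters in 300 bases and no binding was measured. PSMA7, PSMB1, PSMB6, PSMB7, PSMD4 and PSMG3 had no window.

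PSMB9 shares its promoter region with TAP1, a subunit of the peptide transporter for class I display, which starts 488 bases away on the other strand. TAP1 had 4.57, 3.94 and 3.15 FPKM in Vector and 3.65, 4.92 and 4.54 FPKM in OE-MMP28, with overlapping groups (log2 fold change 0.18, SE 0.19, edgeR adjusted p = 0.529). The ratio of PSMB9 to TAP1 was 1.28, 0.929 and 1.30 against 1.91, 1.95 and 1.97, a difference in mean log2 ratio of 0.75 (two-sided exact permutation test, p = 0.1, the smallest possible). The ratio was higher in each OE-MMP28 library than in any Vector library. This pair was chosen after its values were seen.

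Of the 6 ATPases, 5 rose, and all had positive log2 fold changes, from 0.38 to 1.02. PSMC1 (chromosome 14, 90256495 to 90275429) had 7.75, 4.65 and 5.75 FPKM in Vector and 14.5, 11.2 and 10.8 FPKM in OE-MMP28, a log2 fold change of 1.02 (SE 0.18, edgeR adjusted p = 0.000568). Of its exon length, 75.8% is shared with NRDE2 on the opposite strand, whose log2 fold change was 0.99 (edgeR adjusted p = 0.0006). The strand setting of the counting is not given in the sources used here, so the counts of these overlapping genes are uncertain. PSMC3 (chromosome 11, 47418769 to 47426473), with no shared exon, had 56.4, 41.4 and 44.7 FPKM against 68.6, 72.2 and 80.2 FPKM, and these groups were well apart. Its log2 fold change was 0.64 (SE 0.16, edgeR adjusted p = 0.00525), and the call was kept in all 21 alternatives. PSMC4, PSMC5 and PSMC6 rose by 0.57, 0.60 and 0.60 on the log2 scale (edgeR adjusted p of 0.0186, 0.0104 and 0.00760). PSMC5 lost its call without Vector replicate 3 and without OE-MMP28 replicate 2 or 3, and PSMC4 without these or Vector replicate 2, with edgeR adjusted p of up to 0.0553 and 0.103. PSMC4 also lost it with the local-median offset. PSMC2 had 39.7, 21.4 and 28.7 FPKM against 41.5, 36.0 and 38.9 FPKM, where Vector replicate 1 overlapped the OE-MMP28 libraries (log2 fold change 0.38, SE 0.18, edgeR adjusted p = 0.134).

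Of the 11 non-ATPases, PSMD2 was the exception. This scaffold subunit of the cap base (chromosome 3, 184298709 to 184309054) had 39.1, 20.8 and 28.6 FPKM in Vector and 50.6, 57.4 and 48.2 FPKM in OE-MMP28, a log2 fold change of 0.83 (SE 0.18, edgeR adjusted p = 0.00280). Its partner scaffold PSMD1 had a log2 fold change of 0.11 (SE 0.18, edgeR adjusted p = 0.686). The other 9 ranged from -0.15 for PSMD14, the deubiquitinase of the lid, to 0.30 for PSMD11, and the groups overlapped for all of them. The ubiquitin receptor PSMD4, the most abundant of the 11, had 72.6, 54.2 and 57.8 FPKM against 66.1, 70.9 and 75.6 FPKM (log2 fold change 0.22, SE 0.15, edgeR adjusted p = 0.326). In the non-ATPases the OE-MMP28 medians relative to the Vector mean, 0.30, 0.19 and 0.18, were not apart from the Vector values of 0.26, -0.29 and 0.00033.

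Of the assembly factors, PSMD10, a chaperone of the ATPase ring also known as gankyrin, rose. It had 15.2, 14.9 and 16.3 FPKM in Vector and 21.5, 22.0 and 20.0 FPKM in OE-MMP28, with no overlap (log2 fold change 0.46, SE 0.15, edgeR adjusted p = 0.0317). The call was lost without any 1 of the Vector libraries and without OE-MMP28 replicate 2, with an edgeR adjusted p of up to 0.156, and also without a filter on low counts and with the gene length and local-median offsets. The chaperones PSMD5 and PSMD9 and the core assembly factors PSMG1, PSMG2, PSMG3 and PSMG4 ranged from -0.087 to 0.43 and none passed. The activators PSME3 and PSME4 and the inhibitor PSMF1 had log2 fold changes of 0.36, -0.41 and 0.31 with edgeR adjusted p of 0.139, 0.0795 and 0.124. PSMF1 separated the groups, at 23.3, 20.8 and 22.1 FPKM against 26.0, 27.9 and 27.4 FPKM. The core subunits PSMA8 of the testis and PSMB11 of the thymus had 0 counts in every library, which allows up to 0.180 to 0.220 CPM by counting error. PSMC3IP, which the symbol rule takes although it is a recombination factor and no proteasome subunit, had a log2 fold change of -0.23 (SE 0.21, edgeR adjusted p = 0.462).

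Position on the genome moved with these results. Chromosome 14 holds 7 of the 47 members, of which PSMA3, PSMB5, PSMC1, PSMC6, PSME1 and PSME2 rose and PSMA6 did not pass, with a median log2 fold change of 0.81. Of the 485 other genes tested on chromosome 14, 243 rose (50.1%) and 11 fell, with a median of 0.56. On the other chromosomes, 12 of 40 members rose (30.0%) and 1 fell, with a median of 0.28 and 35 positive fold changes. Of all genes tested on any chromosome, 11.7% rose. The 32 members whose neighbours within 5 Mb had a median within 0.2 of 0 had a median of 0.33, and 10 of them rose. Where the neighbours' median was below -0.2, 0 of 5 members rose, and where it was above 0.2, 8 of 10 did. These 10 include all 7 members of chromosome 14, so this count largely repeats theirs. The share of other genes that rose was not taken for groups by neighbours' median.

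Across the 47 members, which share the same 6 libraries, the log2 fold change and the median of the neighbours had a Pearson's r of 0.639 and a Spearman's rho of 0.592, given as a description. The members lay above their neighbours in 42 of 47 cases, by a median of 0.30 on the log2 scale. With each gene's local median taken as an offset in edgeR, 7 members rose (PSMB1, PSMB3, PSMB6, PSMB8, PSMB9, PSMC3 and PSMC5) and 0 fell, where 7.41% of all genes rose. PSMA3, PSMB5, PSME2, PSMC1, PSMC6 and PSMD2 passed in every alternative but this one. Under it PSMC1 was 0.47 above its neighbours (edgeR adjusted p = 0.0919), PSMB5 0.23 (edgeR adjusted p = 0.409), PSME2 0.29 (edgeR adjusted p = 0.207) and PSMD2 0.39 (edgeR adjusted p = 0.159). PSME1 and PSMC6 turned to -0.09 (edgeR adjusted p = 0.735) and -0.03 (edgeR adjusted p = 0.926). What part position had in the members' rise was not tested.

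**Figure D4:**
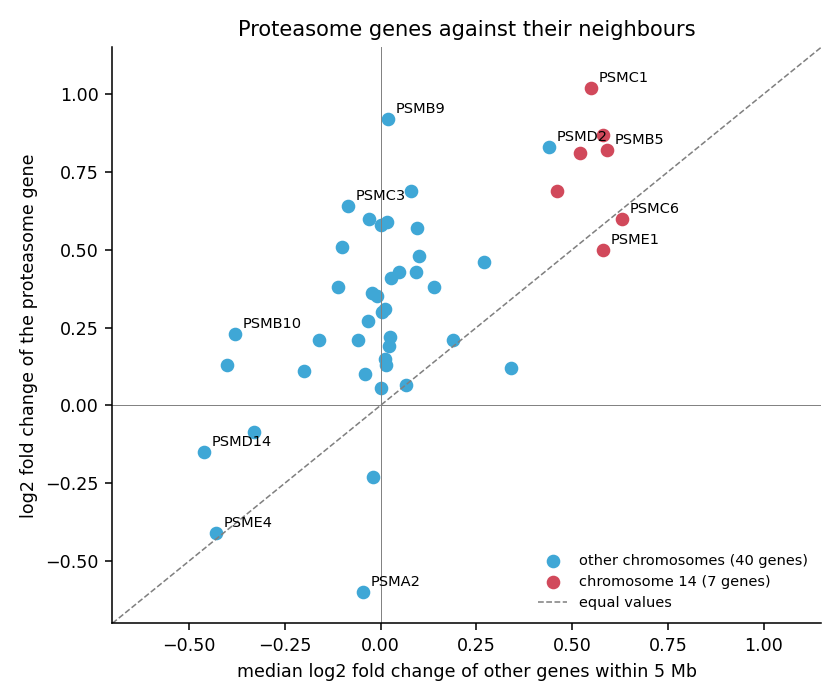
Log2 fold change of each of the 47 proteasome genes (y axis) against the median log2 fold change of other tested genes within 5 Mb (x axis), with the 7 genes of chromosome 14 in red and a dashed line of equal values. Most points lie above the line, PSMB9 and PSMC3 have neighbours near 0, and PSME1 and PSMC6 lie just under the line.

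Genes that build, regulate or feed the proteasome were read from 4 lists. Of all 45 listed genes, 5 rose and 2 fell, with a median log2 fold change of 0.17, so the share that rose was no larger than the 11.7% of all genes. Among 12 partners, POMP, the maturation factor of the core, rose from 62.8 ± 12.8 to 99.4 ± 7.14 FPKM (SD, n = 3 each), a log2 fold change of 0.67 (SE 0.16, edgeR adjusted p = 0.00501). PAAF1, which binds the ATPases, had 1.57, 1.77 and 1.64 FPKM in Vector and 3.37, 3.30 and 3.12 FPKM in OE-MMP28, a log2 fold change of 0.98 (SE 0.17, edgeR adjusted p = 0.00039). Both calls were kept in all 21 alternatives, and PAAF1, whose neighbours had a median of 0.38, was at 0.61 with the local-median offset (edgeR adjusted p = 0.0190).

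Among 11 genes of the NFE2L1 (NRF1) pathway, which restores proteasome genes after inhibition, 2 rose and 1 fell. NFE2L3, a relative of NFE2L1, had 1.80, 1.67 and 1.56 FPKM in Vector and 7.13, 7.24 and 7.15 FPKM in OE-MMP28, more than any proteasome gene moved (log2 fold change 2.10, SE 0.18, edgeR adjusted p = 7.57e-08). NFE2L1 itself had 31.9, 33.1 and 26.5 FPKM against 31.3, 38.0 and 31.5 FPKM (log2 fold change 0.15, SE 0.15, edgeR adjusted p = 0.509). NFE2L2, the oxidative stress factor, fell from 28.6 ± 1.28 to 19.4 ± 2.92 FPKM (SD, n = 3 each; log2 fold change -0.55, edgeR adjusted p = 0.0105), and the median of its neighbours on chromosome 2 was -0.43. SEL1L, part of the endoplasmic reticulum degradation complex, rose by 0.69 on the log2 scale (edgeR adjusted p = 0.00723), and the median of its neighbours on chromosome 14 was 0.72. Without OE-MMP28 replicate 2 neither of the latter passed, with edgeR adjusted p of 0.0671 and 0.0753, nor did NFE2L2 without Vector replicate 3. With the local-median offset NFE2L2 was at -0.13 (edgeR adjusted p = 0.617) and SEL1L at -0.038 (edgeR adjusted p = 0.916), and SEL1L was also lost in both limma fits on FPKM.

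Among 11 ubiquitin and shuttle genes, 0 rose and 1 fell, the ubiquitin precursor RPS27A (log2 fold change -0.41, edgeR adjusted p = 0.0401, neighbours on chromosome 2 at -0.45). That call was lost without Vector replicate 1 or 3 and without OE-MMP28 replicate 2 or 3 (edgeR adjusted p of up to 0.157). It was also lost with the replicate block, without a filter on low counts and in both limma fits on FPKM. With the local-median offset the value turned to 0.036 (edgeR adjusted p = 0.900). Among 11 interferon and class I genes, HLA-B alone passed, with 3.32, 1.75 and 1.49 FPKM against 3.92, 4.80 and 6.88 FPKM (log2 fold change 1.26, SE 0.27, edgeR adjusted p = 0.00233). HLA genes share reads with near-identical relatives, so this value is uncertain. The other 10, among them TAP1, did not pass, and the median of the 11 genes was 0.057.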

How the data were processed

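RNA of 6 AsPC-1 libraries (3 Vector, 3 OE-MMP28, grouped by the treatment label) was analysed. The authors deposited 1 table of raw read counts per gene, with FPKM values from those counts and the joined exon length. The submitters' processing notes name HISAT2 2.0.5 and featureCounts 1.5.0-p3, and the strand setting is not given in the sources used here. The table also held the authors' own fold changes and p-values, which were not used. All 58735 genes had the coordinates of GENCODE release 29 on GRCh38, and the number of unmapped per-sample columns was 0.

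Counts were tested with edgeR 4.0.16 (R 4.3.3) by the quasi-likelihood test after filterByExpr (minimum count 10, minimum total 15) and TMM scaling, with the group as the only term and Benjamini-Hochberg adjustment over all 15319 genes. An SE is the log2 fold change divided by the root of F. Ratios were taken on FPKM. The members, gene lists and tests were chosen with earlier results of these data known. The 5 immunoproteasome genes, PSMB5, PSMB6, PSMB7 and every member with an adjusted p under 0.05 were named, other members with the range of their group, and genes of the other lists where they passed. NFE2L1, TAP1 and the overlapping genes NRDE2, AC040162.1 and PSMB8-AS1 were named outside this rule, after their values were seen.

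The alternatives were each library left out in turn, the replicate block, other scalings and filters, DESeq2 1.42.0, limma 3.58.1 (voom, and log2(FPKM + 1) or log2(FPKM + 0.1) at a mean of at least 0.5 FPKM), protein-coding genes only, no mitochondrial genes, the local-median offset (at least 10 genes within 5 Mb, members left out) and the gene length offset. GC content with gene length, alone and with the block, was added after the data were seen. The edgeR fit was tested on simulated counts with 100 genes changed at each of 2 sizes. It recovered 92% of genes changed by 1 on the log2 scale and 10% of those changed by 0.5, and 2.86% of calls were false. Far fewer genes were changed there than were called here, so these rates need not hold for the members. Chi-square per degree of freedom was 13.9 to 28 between libraries of 1 group, so none were duplicates. A floor of 3 counts covers only counting error, since reads lacking molecular identifiers may be copies of 1 molecule.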

Additional observations from a re-analysis of the deposited data

How the results depend on the processing

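The number of members with a positive fold change was stable, while the calls and the sign of some members were not. Positive fold changes numbered 39 to 43 of 47 members over the 21 alternatives and the members' median log2 fold change 0.29 to 0.49, while the count of higher members ran from 10 to 24 with single libraries left out and was 7 with the local-median offset. With that offset PSME1 was -0.09, PSMC6 -0.03, SEL1L -0.038 and RPS27A 0.036, each opposite in sign. Members not called also changed sign with it: PSMD9 to -0.22, PSMD14 to 0.31, PSMG4 to 0.24 and PSME4 to 0.02. Leaving out 1 library turned other members not called, among them PSMD7 (down to -0.11). The count of lower members, 1, was 0 to 2 with single libraries left out, 2 with upper-quartile scaling, with the GC content and gene length offset and with the replicate block and that offset, and 0 without a filter on low counts, with limma on log2(FPKM + 1) or log2(FPKM + 0.1) and with the local-median offset. Immunoproteasome genes called higher numbered 2 to 4 with single libraries left out and 2 with the local-median offset. Of the pathway genes, 8 were higher with the replicate block and the GC content and gene length offset, and the lower ones, 2 at first, were 0 to 2 with single libraries left out, 0 with the local-median offset, and 1 with the replicate block, without a filter, and with limma on log2(FPKM + 1) or log2(FPKM + 0.1). A pseudocount of 1 FPKM moved the log2 ratio of PSMB9 to PSMB6 from 0.21 to 0.087. The cause was not tested.

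Same-numbered libraries did not deviate together (r of 0.0168, 0.00798 and -0.0876 across genes), and not every library correlated best with its own number, so the numbers pair nothing. With the replicate block 19 members were higher and 1 lower. The low member PSMA6 rested on 54 to 155 counts per library. The log2 ratio of PSMB10 to PSMB7 was -0.070 to 0.23 with single libraries left out, and that of PSMB8 to PSMB5 -0.42 to -0.073.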
